A study of Mus musculus with 7 samples.

Results

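Cytosolic ribosomal protein genes encode the proteins that join ribosomal RNA to form the large and small subunits of the ribosome. They were chosen here by name, as rows named Rpl or Rps with a number and an optional a, x or l, together with Rplp0, Rplp1, Rplp2 and Rpsa. This gave 81 of the 25965 rows of the table, 49 for the large and 32 for the small subunit, and 78 of them passed the filter on low values (46 and 32). The 3 that did not pass, Rpl3l, Rpl10l and Rpl39l, are paralogues whose names end in l.

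RNA-seq was run on tissue of female FVB/N mouse embryos at E9.5, taken from the posterior end about 1 somite length behind the last somite. The labels give 3 wild-type libraries (Smchd1 +/+) and 4 libraries homozygous for the MommeD1 allele of Smchd1, called null here. The design text counts 3 null samples. Smchd1 is a chromatin protein that acts in X inactivation and at some imprinted and clustered genes, and both X chromosomes are present in all of these female samples. The table's column names give genotype but not sample number, so libraries are lettered A to D (null) and A to C (wild-type) in file order. Nothing in the labels says whether each library is a separate embryo, so p-values measure only the spread between these libraries.

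Each ribosome holds about one copy of most of these proteins, and their messenger RNAs are among the most coordinately regulated in the cell. Most of these messages begin with a run of pyrimidines at the 5′ end, the terminal oligopyrimidine tract, through which nutrient signalling controls their translation. Translation was not measured here, and the values are RNA amounts only.

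Pyrimidine runs were looked for in promoter windows from RefSeq (build GRCm38.p6, 250 bases before to 50 after each annotated start). A run could lie on either side of the start, so it need not be the terminal tract. Windows were matched by symbol for 61 of the 81 genes, which gave 73 windows, because 10 genes have more than 1. A run of at least 9 C or T on the sense strand within 50 bases of the start was in 75.3% of these windows and in 25.3% of all 32851 windows of that length. This was 1 of 15 combinations of run length and distance searched, and it was chosen for printing after its share had been seen. In all 15 the share was higher among ribosomal protein genes, by 1.35 to 4.87 times. The stretches that follow show the longest run within 50 bases of the start, in capitals, for genes with the largest differences or the highest level and for the 4 X-linked genes. Each is 30 bases, 5′ to 3′. Where a gene has more than 1 window, the one with the longest run is shown.

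Rps6 (chr4:86857349-86857378, minus strand): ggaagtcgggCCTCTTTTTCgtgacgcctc
Rps15a (chr7:118116143-118116172, minus strand): gcccggcccaCTCTCTTTCTgccatcttcc
Rps23 (chr13:90923142-90923171, plus strand): tgggtccttcctgcaCCTCCTCTCTCTTTC
Rps28 (chr17:33824567-33824596, minus strand): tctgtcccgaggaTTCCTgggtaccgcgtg
Rpl35 (chr2:39005115-39005144, minus strand): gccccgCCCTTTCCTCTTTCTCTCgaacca
Rpl38 (chr11:114668568-114668597, plus strand): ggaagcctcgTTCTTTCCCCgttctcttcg
Rpl4 (chr9:64173405-64173434, plus strand): gagcgtggCCTTCTCCTCTCCCCgtcatgg
Rpl36a (chrX:134585672-134585701, plus strand): cggctctagCCTCTCTCTTTCCgagctgct
Rpl39 (chrX:37085173-37085202, minus strand): gttcttccggtcccggCCTTTCTCTTCTCC
Rps4x (chrX:102189342-102189371, minus strand): cgcgcagcctccgaccctaaTTTCTTCgtt
Rpl10 (chrX:74270836-74270865, plus strand): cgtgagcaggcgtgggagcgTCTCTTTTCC

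The run was 10 bases long in Rps6, Rps15a, Rpl38 and Rpl10, and 18 in Rpl35. It was 7 in Rps4x and 5 in Rps28, short of the 9 used for the share above. Relative to the annotated start, the first base of the printed runs lay from -21 in Rps28 to 41 in Rpl10 and Rps4x. Whether a run is at the 5′ end of the message was not tested. The 48 tested genes with a run of at least 9 had a median null minus wild-type difference of -0.13 (log2), with 45 below 0. The 10 tested genes with a window but no such run had a median of -0.10, with 8 below 0.

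Expression values were centred, meaning that each library's median over autosomal genes was subtracted from its log2 values. A centred value of 0 is the level of the middle autosomal gene, and differences are null minus wild-type in log2. No ribosomal protein gene passed the test in either direction (limma on the 13997 genes kept, Benjamini-Hochberg adjusted p under 0.05), and the smallest adjusted p among the 78 was 0.259. Over all genes 8 passed, or 0.0572% (7 higher, which is 0.05%, and 1 lower, which is 0.00714%). Without adjustment 2 ribosomal protein genes were higher and 9 lower at p under 0.05, against 7.29% and 6.71% of all genes. Smchd1 itself, the check of the labels, had 1922 to 2372 reads in the null and 5572 to 6552 in the wild-type libraries, a difference of -1.67 (SE 0.07, limma adjusted p 9.54e-05).

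The differences of the 78 genes lay mostly below 0. Of them 71 (91.0%) were below 0, against 57.5% of all genes tested, and their median was -0.13, against -0.03 over all genes. The 46 large subunit genes had a median of -0.13, with 41 below 0, and the 32 small subunit genes -0.14, with 30 below 0. In 58 of the 78 the difference was between -0.2 and 0. Every null library was below every wild-type library for 8 genes, and 6.24% of all genes did so. Every null library was above every wild-type library for 2 genes, and 6.51% of all genes did so.

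**Figure D1:**
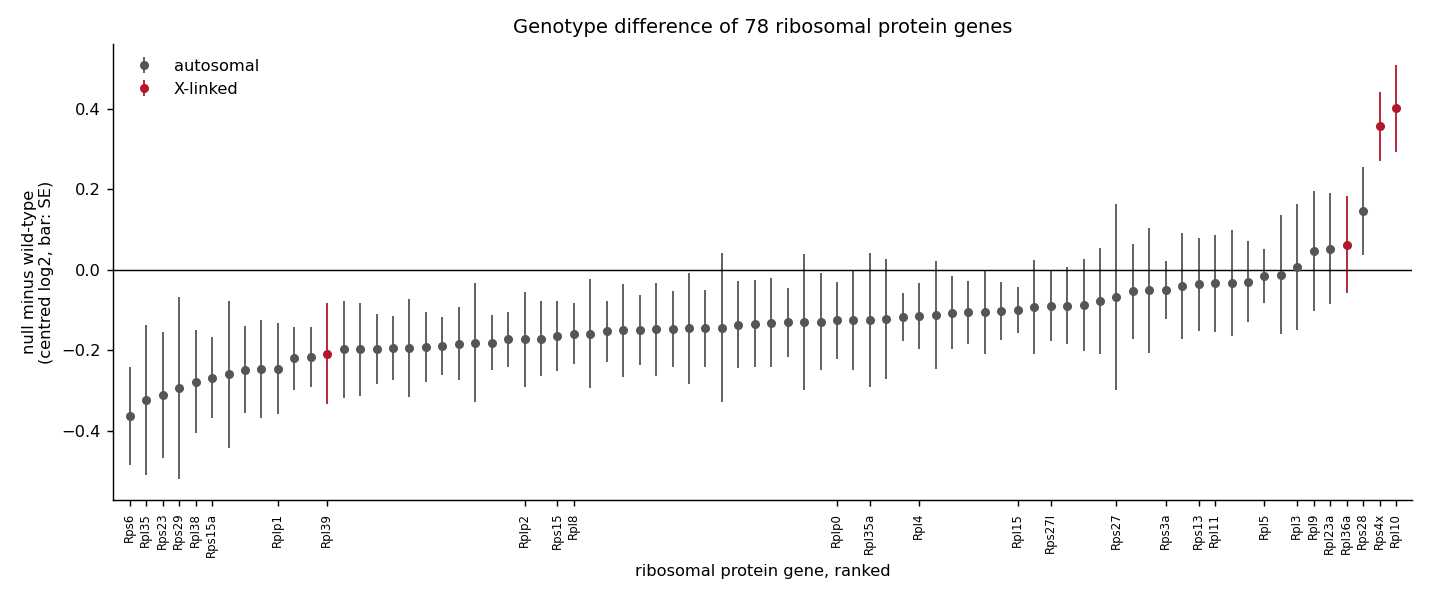
Null minus wild-type difference (centred log2, bars are SE) of the 78 tested ribosomal protein genes, ranked, with X-linked genes in red and the names of genes chosen by the naming rule on the axis. Rps6 is lowest at -0.36, and the X-linked Rps4x and Rpl10 are highest at 0.36 and 0.40.

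The size of the lower values moved most with 1 library. Wild-type library B gave the highest value of the 7 for 71 of the 78 genes. Relative to each gene's own mean, the median over the 74 autosomal genes was 0.27 in that library, and between -0.13 and 0.04 in the others. Without wild-type library B the median difference of the 78 genes was -0.04, and no gene had an unadjusted p under 0.05 on the lower side. Leaving out a library can only keep or raise the count of genes lower in every null library. That count stayed at 8 without wild-type B (7.92% of all genes, against 6.24% with it). It was 39 without wild-type A, 18 without wild-type C and 16 without null A, where the share of all genes was also larger, at 19.5%, 13.0% and 14.7%. Reads in listed genes were fewest in wild-type libraries B and C, at 20394567 and 19622596, against 22137823 to 23847381 in the null libraries and 23548995 in wild-type A. Their autosomal medians were also the lowest, at 3.86 and 3.78 against 4.05 to 4.19 in the others. Wild-type library B has 18 as the last number in its column name, shared only with null A, and no label explains that number. This library also stood apart in tissue markers. It was highest of the 7 for all 5 neural tube markers, whose summed level was 114 RPM (reads scaled by the library denominator that the deposited values imply) against 36.8 to 78.3 in the other 6 libraries. It was lowest for 7 of 11 presomitic mesoderm and tailbud markers and highest for 2, with a summed level of 271 RPM against 345 to 490. Dll1, of the same list, had 6111 reads there and 3713 to 5321 in the others. Wnt3a, a signal of the tailbud, had 118 reads there and 1102 to 1752 in the others, and Sox1, a neural tube factor, 1199 against 102 to 649. Fewer cells of a type and less RNA per cell cannot be told apart in these bulk samples. The part of tissue makeup and of read totals in the ribosomal protein differences was not tested.

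**Figure D2:**
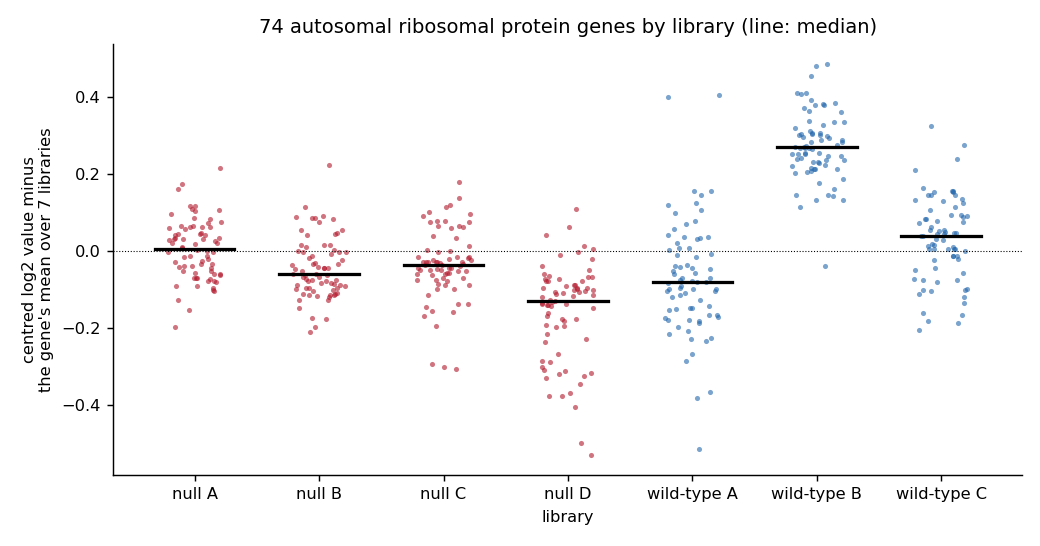
Centred log2 value of each of the 74 autosomal ribosomal protein genes in each library, minus the gene's mean over the 7 libraries; black lines are medians. Wild-type library B stands at a median of 0.27, and null library D is lowest at -0.13.

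The direction also depended on centring. On the deposited values, with no centring, the median difference was 0.06 for the ribosomal protein genes and 0.16 for all genes tested. There 60 of the 78 were above 0 and 18 below, against 7.25% of all genes below 0. On that scale 3 of them were higher in every null library (7.02% of all genes) and 0 were lower in every one (0.0572% of all genes). None was called by limma there, and 0.0429% of all genes were. As a share of reads in listed genes, the 81 genes took 0.340% ± 0.0118 in the null group (SD, n = 4). In the wild-type group the share was 0.360% ± 0.0338 (SD, n = 3). The wild-type values were 0.331%, 0.397% and 0.352%, and the null values of 0.323% to 0.350% overlapped them. As a share of the library denominators the order of the group means turned, with 0.122% in null and 0.117% in wild-type libraries. The wild-type values were 0.126%, 0.124% and 0.101% in A to C, and the null values of 0.120% to 0.129% overlapped them. Only wild-type C lay below the null values.

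Among small subunit genes, Rps6 had the largest negative difference. Rps6 encodes the protein that S6 kinase phosphorylates. Its centred values were -1.38, -1.44, -1.46 and -1.60 in null libraries A to D and -1.21, -0.86 and -1.25 in wild-type A to C. All null libraries were below all wild-type libraries, and the difference was -0.36 (SE 0.12, limma adjusted p 0.352). Rps15a, a protein of the small subunit, had 0.19, 0.21, 0.18 and -0.16 in null and 0.38, 0.47 and 0.27 in wild-type libraries. The groups did not overlap, null library D was lowest, and the difference was -0.27 (SE 0.10, limma adjusted p 0.352).

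Rps23, which lies at the decoding centre, and Rps29, a zinc-binding protein, overlapped between groups. Rps23 had -2.25, -2.06, -2.45 and -2.36 in null and -2.22, -1.75 and -1.94 in wild-type libraries, a difference of -0.31 (SE 0.16). Rps29 had -3.11, -3.21, -3.08 and -3.67 in null and -2.74, -2.83 and -3.34 in wild-type libraries, a difference of -0.29 (SE 0.23). Rps29 also had among the largest spreads over the 7 libraries, with an SD of 0.31. Rps28 was the highest autosomal gene, with -1.21, -0.89, -0.997 and -1.10 in null and -1.34, -1.15 and -1.10 in wild-type libraries. Its groups overlapped, and the difference was 0.15 (SE 0.11).

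Among large subunit genes, Rpl35 and Rpl38 had the largest negative differences. Rpl35, which sits near the exit of the nascent peptide tunnel, had -1.47, -1.46, -1.32 and -1.90 in null and -0.99, -1.07 and -1.59 in wild-type libraries. Wild-type C lay within the null values, and the difference was -0.32 (SE 0.19). Rpl38, loss of which causes the Tail short skeletal phenotype in mice, had -0.88, -1.12, -1.21 and -0.92 in null and -0.997, -0.63 and -0.64 in wild-type libraries. Wild-type A lay within the null values, and the difference was -0.28 (SE 0.13, limma adjusted p 0.355).

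**Figure D3:**
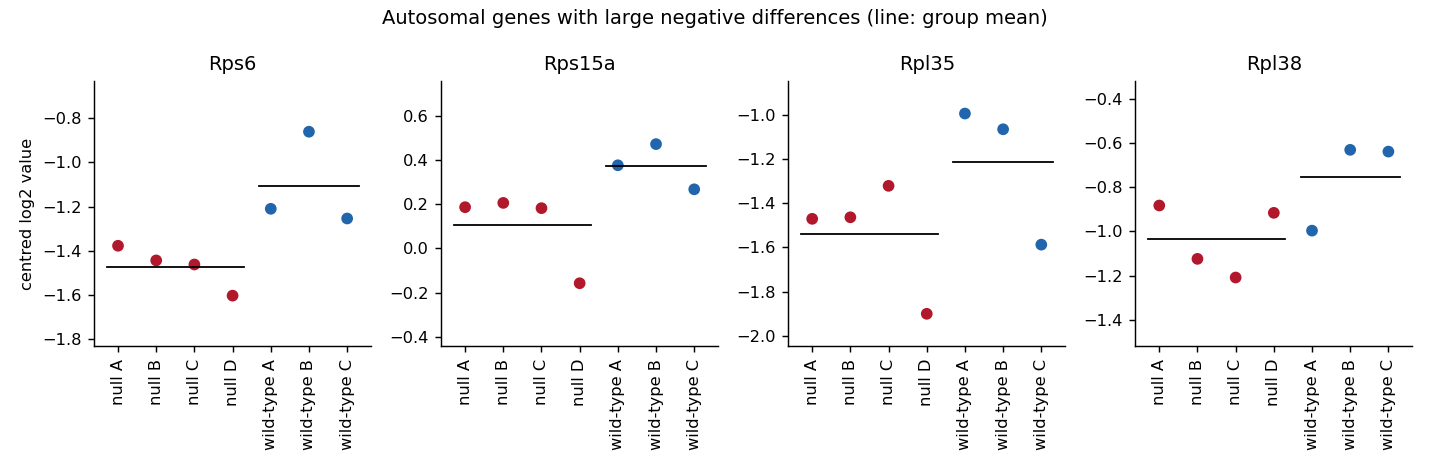
Centred log2 values by library for Rps6, Rps15a, Rpl35 and Rpl38, null in red and wild-type in blue, with group means as lines and 1.2 log2 units in each panel. The groups do not overlap for Rps6 and Rps15a, and overlap for Rpl35 and Rpl38.

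Rps9, Rpl32, Rpl41, Rpl6 and Rps19 also had every null library below every wild-type library, and are named after their values were seen. Their differences lay between -0.22 in Rps9 and -0.19 in Rps19. In Rps9 the null values were 0.67, 0.67, 0.71 and 0.57, and the wild-type values 0.76, 1.04 and 0.82. In Rps19, a gene mutated in Diamond-Blackfan anaemia, they were -0.13, -0.20, -0.19 and -0.16, and -0.05, 0.16 and -0.05. Wild-type library B was the highest in both.

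The stalk proteins Rplp0, Rplp1 and Rplp2 recruit elongation factors to the large subunit. Their differences were -0.13 (SE 0.10), -0.25 (SE 0.11) and -0.17 (SE 0.12). Rplp1 had -1.05, -1.12, -1.03 and -1.11 in null and -1.09, -0.67 and -0.74 in wild-type libraries, so that wild-type A lay within the null values. Rpl5 and Rpl11, which with 5S RNA form the particle that binds Mdm2, differed by -0.01 (SE 0.07) and -0.03 (SE 0.12). Rpl5 had 0.50, 0.45, 0.42 and 0.42 in null and 0.38, 0.60 and 0.41 in wild-type libraries, and was among the 3 genes of smallest spread with Rpl15 and Rps3a (SD over 7 libraries 0.0745, 0.0763 and 0.0739).

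The paralogues Rpl3l, Rpl10l and Rpl39l had few reads. Rpl10l had 0, 2, 1 and 0 reads in null libraries and 0 in all 3 wild-type libraries. Rpl39l had 1 to 6 reads in null and 2, 4 and 16 in wild-type libraries, and Rpl3l, known from muscle, 12 to 26 and 13 to 17. Rps27l, a paralogue of Rps27 and a p53 target, was well measured, with 582 to 654 reads and a difference of -0.09 (SE 0.09). Its parent Rps27 had 93 to 137 reads and a difference of -0.07 (SE 0.23).

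Of the 4 X-linked genes, Rpl10 and Rps4x had null values that all lay above their wild-type values. Rpl10 encodes a late-joining protein of the large subunit, and Rps4x a small subunit protein. Rpl10 had 1346, 1417, 1301 and 1269 reads in null and 930, 1020 and 754 in wild-type libraries. Its centred values were 0.27, 0.29, 0.27 and 0.11 in null and -0.29, 0.11 and -0.31 in wild-type libraries, a difference of 0.40 (SE 0.11, limma adjusted p 0.308). Null D and wild-type B met at 0.11 to 2 decimals, with null D above.

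Rps4x had 1425, 1571, 1488 and 1448 reads in null and 1058, 1105 and 925 in wild-type libraries. Its centred values were 0.36, 0.44, 0.46 and 0.31 in null and -0.10, 0.22 and -0.01 in wild-type libraries, a difference of 0.36 (SE 0.09, limma adjusted p 0.259). In all 19 alternative settings the groups of both genes stayed apart. Settings that change only the model, or leave out 1 library, could not have made the groups overlap. Differences were 0.33 to 0.59 for Rpl10 and 0.29 to 0.55 for Rps4x. The limma adjusted p ranged from 0.0913 to 0.620 for each, so neither passed the test under any setting.

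Rpl36a and Rpl39, both large subunit genes, did not separate. Rpl36a had -1.13, -1.34, -1.44 and -1.31 in null and -1.53, -1.17 and -1.42 in wild-type libraries, a difference of 0.06 (SE 0.12). Rpl39 had -1.45, -1.31, -1.69 and -1.65 in null and -1.31, -1.19 and -1.45 in wild-type libraries, a difference of -0.21 (SE 0.13). Of all 496 X-linked genes tested, 161 (32.5%) were higher in every null library, so 2 of 4 is to be read beside that share. The X-linked genes outside the ribosomal protein set had a median of 0.15, with 358 of 492 above 0 and 6 called higher.

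**Figure D4:**
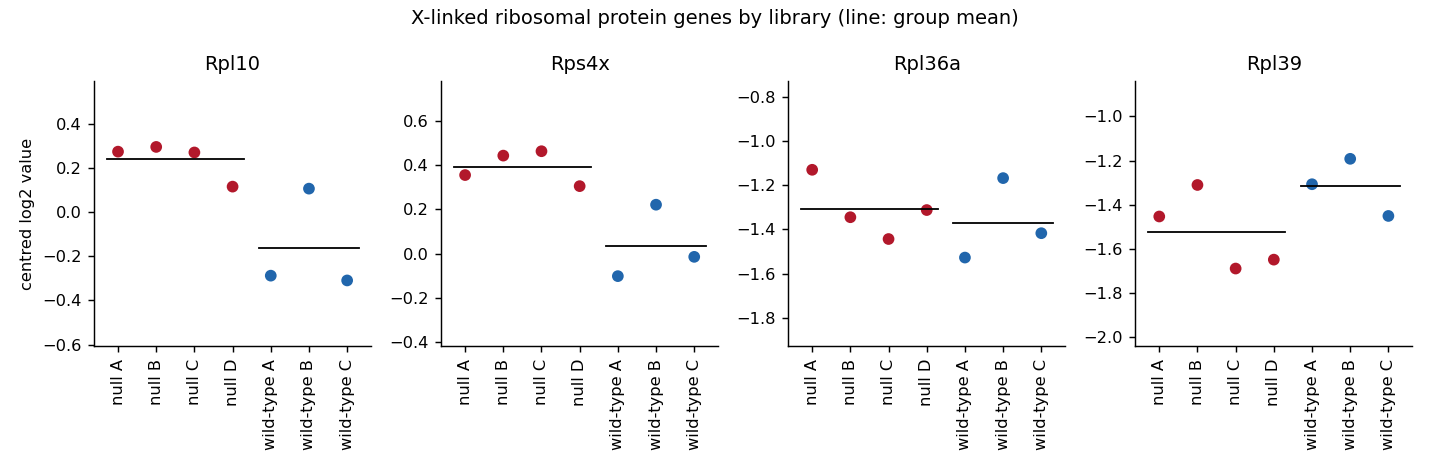
Centred log2 values by library for the 4 X-linked ribosomal protein genes, null in red and wild-type in blue, with group means as lines and 1.2 log2 units in each panel. Rpl10 and Rps4x separate by genotype, and Rpl36a and Rpl39 overlap.

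The 150 bases before the annotated start of these 4 genes are given because 2 of the 4 separated by genotype. Capitals mark matches, on either strand, to 4 of the 14 letter strings searched in the promoter windows. The 4 were picked after their shares had been seen. CCGGAAG was in 37.0% of the ribosomal protein windows and 8.86% of all windows. The shares were 58.9% and 35.7% for GGGCGG, 17.8% and 7.76% for TGCGCA, and 8.22% and 13.6% for TATAAA. On the sense strand within 50 bases of the start, TATAAA was instead in 5.48% of the ribosomal protein windows and 3.40% of all windows. Over the whole window 13 of the 14 strings were more frequent in the ribosomal protein windows.

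Rpl10 (chrX:74270666-74270815, plus strand): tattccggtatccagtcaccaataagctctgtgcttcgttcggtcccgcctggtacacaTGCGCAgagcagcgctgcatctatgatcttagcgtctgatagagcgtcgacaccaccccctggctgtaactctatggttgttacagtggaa
Rps4x (chrX:102189392-102189541, minus strand): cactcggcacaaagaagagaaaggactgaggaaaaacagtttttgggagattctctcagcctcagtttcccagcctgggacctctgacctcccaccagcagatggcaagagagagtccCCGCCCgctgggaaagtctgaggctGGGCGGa
Rpl36a (chrX:134585504-134585653, plus strand): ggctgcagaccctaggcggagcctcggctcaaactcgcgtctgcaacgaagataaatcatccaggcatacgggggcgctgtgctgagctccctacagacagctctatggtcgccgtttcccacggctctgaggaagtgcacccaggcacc
Rpl39 (chrX:37085223-37085372, minus strand): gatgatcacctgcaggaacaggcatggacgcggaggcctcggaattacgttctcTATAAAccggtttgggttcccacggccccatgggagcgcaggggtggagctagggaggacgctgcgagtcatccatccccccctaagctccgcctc

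Within these 150 bases TGCGCA was found once in Rpl10, GGGCGG in both orientations in Rps4x, and TATAAA once in Rpl39, with none of the 4 in Rpl36a. A match is a match of letters only.

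Levels were compared between genes per length, as RPKM, the RPM per kilobase of exon. Over the 78 genes the median RPKM was 5.96, against 4.13 for other genes with a length. The highest were Rpl4 (30.7), Rps15 (29.6) and Rpl8 (26.3), and the lowest Rps27 (1.87), Rpl35a (2.23) and Rps13 (2.38). This ranking depends on the length. The length used is the union of all annotated exons, taken after a first ranking with the shortest principal transcript had been seen. With that first length the median was 16.7, the 2 highest were Rpl22 (114) and Rpl13a (44.0), and the lowest Rps23 (4.01), Rps16 (4.64) and Rps29 (4.94), so the 2 lengths name different genes at both ends.

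Many of these genes share sequence with processed copies. In the median gene 39.4% of the 50-base windows of the transcript occurred in no other annotated transcript of another gene, and 19 of the 78 were below 20%. Rpl10 had 7.87% such windows and shared others with 15 genes, Rps6 had 15.4%, and Rps4x 27.8%, so their counts are uncertain where reads could be split. The median level was 6.79 in those 19 genes and 14.6 in the 4 genes above 90%. The 60 rows for ribosomal protein pseudogenes held 1359 to 1466 reads per library in all.

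The spread of these genes between libraries depended on the measure. On centred values the median SD over the 7 libraries was 0.164, against 0.127 over all genes. On unscaled reads the median ratio of variance to mean was 5.56, against 16.4 for other genes. Other genes of like length were nearer under 2000 exon bases. Their ratio was 7.11 against 6.29 in ribosomal protein genes from 1000 to 2000 bases, and 3.97 against 2.35 under 1000. It was 11.6 against 5.79 from 2000 to 4000 bases, and 21.4 against 3.98 over 4000. Rpl8, for example, had 2225 to 2373 reads in every library, a ratio of 1.14. With the exon union as length, no ribosomal protein gene had more than 2 reads per base, and 0.376% of other genes did. With the shortest principal transcript 14 of the 78 did (17.9%), and 2.79% of other genes. The handling of duplicate and multi-mapping reads is not given in the sources used here, and its part in these values was not tested.

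The difference of other genes varied with read density. With the exon union as length, the median of other genes was 0.06 below 0.25 reads per base, -0.04 from 0.25 to 0.5, -0.08 from 0.5 to 1, -0.11 from 1 to 2 and -0.09 above 2. Ribosomal protein genes had -0.14, -0.12, -0.13 and -0.16 in the first 4 bins. With the shortest principal transcript the other genes had 0.11, -0.01, -0.06, -0.09 and -0.10, and the ribosomal protein genes, of which none was in the first bin, -0.19, -0.09, -0.13 and -0.16.

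**Figure D5:**
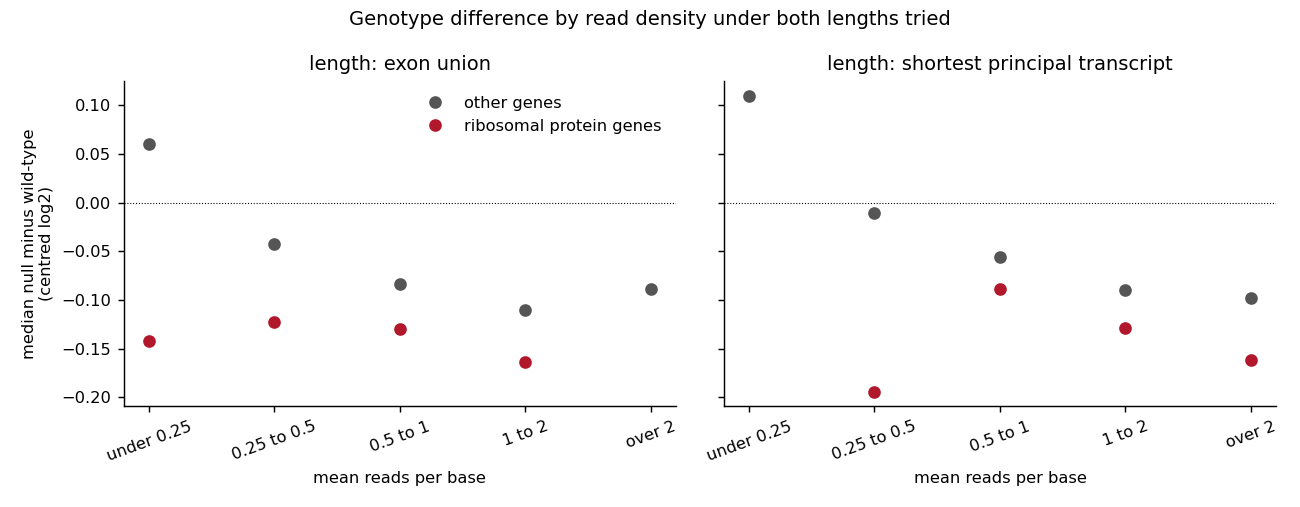
Median null minus wild-type difference (centred log2) by mean reads per base, for ribosomal protein genes (red) and other genes (grey), under both lengths tried. Ribosomal protein genes lie below other genes in each bin that holds both, and the gap is smaller above 0.5 reads per base.

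Lists of other genes tied to translation or ribosome production had like values. The 8 tested rows listed as ribosomal proteins outside the name pattern had a median of -0.14, all below 0. Rpl7l1 was at -0.19 (SE 0.06) and Gnb2l1, the Rack1 gene, at -0.16 (SE 0.07). Rpl9-ps6 and Rps26-ps1 on this list carry pseudogene names, and are also among the 60 pseudogene rows. The 25 other genes listed for the oligopyrimidine class had a median of -0.12 with 24 below 0, for example Eif3a at -0.17 (SE 0.06) and Eif4b at -0.15 (SE 0.05). That list is not limited to translation factors, and holds Vim and Gas5, for example. The 47 genes listed for ribosome assembly and RNA polymerase I, with Myc and Mycn among them, had a median of -0.16, all below 0. The assembly ATPase Mdn1 was at -0.26 (SE 0.08) and the polymerase subunit Polr1a at -0.18 (SE 0.06).

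The 76 mitochondrial ribosomal protein genes had a median of -0.12 with 74 below 0, for example Mrps21 at -0.24 (SE 0.08) and Mrpl47 at -0.20 (SE 0.07). None of the genes in these 4 lists passed the test (limma). The lists share the libraries and their scaling with the ribosomal protein genes, so they are not separate evidence.

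Marker lists for the tissues that the dissection could hold also differed in level between groups, with none of their genes called, and several of these differences moved with wild-type library B. The 11 presomitic mesoderm and tailbud markers had a median of 0.32, with 8 above 0, and 0.10 without wild-type B, with 7 above 0. The 2 with the smallest p were T, at 0.57 (SE 0.23), and Msgn1, at 0.38 (SE 0.19), both factors of early mesoderm. The 5 neural tube markers had a median of -0.75, with all below 0, and -0.40 without wild-type B, with 4 below 0. Irx3 was at -0.75 (SE 0.33) and Sox3 at -0.82 (SE 0.47).

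The 3 genes listed for notochord and the 4 listed for hindgut were above 0 in all 7 cases with and without wild-type B. The medians were 0.81 and 0.58 with it, and 0.71 and 0.29 without it. Whether a listed gene marks only that tissue was not tested, so the lists need not stand for separate tissues. Chrd and Noto, expressed in the notochord, were at 0.81 (SE 0.16) and 1.04 (SE 0.21), and Foxa2 and Cdh1, from the hindgut list, at 0.62 (SE 0.12) and 0.62 (SE 0.21). Summed levels were 24.7 to 32.5 RPM (notochord) and 62.4 to 75.9 RPM (hindgut) in null against 13.4 to 18.7 and 30.2 to 56.5 RPM in wild-type libraries.

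The 3 tested somite markers had a median of -0.48, and 0.04 without wild-type B, with Tcf15 at -0.48 (SE 0.45) and Meox1 at -0.77 (SE 0.79). The 5 tested blood markers had a median of -0.14, and -0.29 without it, with the embryonic globins Hbb-y at -0.16 (SE 0.16) and Hba-x at -0.18 (SE 0.19). How these shifts bear on the ribosomal protein values was not tested.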

How the data were processed

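RNA-seq libraries of 3 wild-type and 4 null samples were analysed from a single table. The submitters' processing notes name TopHat2 2.0.12, bcl2fastq, build mm10 and edgeR. How reads were counted, and on which strand and annotation, is not stated there. Per the file headers and the values, the authors deposited log2 values of RPM. In 100% of the values checked (under 1000 reads), the linear value was a whole number of reads to within 0.01, and a gene without reads stood at 0.9 read, so whole reads were recovered. Denominators were 59.2 to 68.2 M reads, and reads in listed genes were 28.8% to 37.9% of them. A gene with 0 reads lies below 0.044 to 0.0507 RPM (3 reads, counting error only).

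A gene was kept if 3 or more libraries had it above a log2 of 0. Values were centred on each library's autosomal median and tested with limma 3.58.1 in R 4.3.3 using a trended prior, with p adjusted by Benjamini-Hochberg over all 13997 genes. The test was checked on simulated data. The planned count tests were not used because the table holds log2 values, and voom on the recovered reads was added. Promoter windows came from RefSeq and gene lengths and transcripts from GENCODE M21, matched by symbol (Rps3a as Rps3a1). Python 3.11.15 was used with pandas 2.3.3, numpy 2.4.6 and, for the figures, matplotlib 3.10.9.

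The genes, lists and tests were chosen with earlier results of these data known. Named genes were those with the 6 largest differences in each direction, X-linked, stalk and 5S particle genes, paralogues with their parents, and the 3 at each end of level and of spread. From each other list the 2 with the smallest p were named, and Wnt3a, Sox1 and Dll1 for their values in wild-type B. Some single-gene results are not reported here. Some choices were made after values were seen. In all, 2 gene lengths were tried, and the exon union was kept because the shortest principal transcript of some genes left out much of the exon sequence (474 against 2911 bases in Rpl22). The exon union in turn counts exons of long isoforms (6270 bases in Rps15a), so neither length is exact. The promoter search computed 43 shares in all, over 15 tract settings and 14 letter strings searched in 2 ways, of which a few are printed. The checks of read density and of variance were added after low variance in pseudogene counts was seen. Alternatives tried were other scalings, filters, pseudocount, prior, array weights, voom, a replicate block and leaving out each library.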

Additional observations from a re-analysis of the deposited data

Results flagged for a closer look

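In 3 of 29 groups of 4 null values examined, 1 library lay far from the other 3, which chance gives in about 1 in 20 groups. Rpl10 was at 0.115 in null library D, against 0.27 to 0.29 in the others, and above all wild-type libraries. Rps15a was at -0.157 in null library D, against 0.18 to 0.21. Rps27l was at -0.900 in null library D, against -0.82 to -0.81, and its spread was small in all 7 libraries.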

How the results depend on the processing

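No ribosomal protein gene was called under any of the 20 settings run. The median difference of the genes, -0.13, turned to 0.0602 on the deposited values, where the median of all genes was 0.16, and was -0.04 without wild-type library B. The count of all genes called, 8, was 2 with centring on autosomal ribosomal protein genes, 13 with array weights, 19 with cyclic loess, 16 with quantile normalization and 20 when only genes with a mean log2 of 3 or more were kept, and 4 to 10 when 1 library was left out. Genes lower in every null library, 8, were 3 with centring on autosomal ribosomal protein genes (0.472% of all genes). That centring sets the median of these genes to 0 in each library, so it removes their common shift by construction. On the deposited values 0 were lower in every null library (0.0572% of all genes). With 1 library left out 8 to 39 were so (7.06% to 19.5% of all genes). Genes higher in every null library, 2, were 2 to 4 with 1 library left out (7.33% to 12.3% of all genes), with the 4 found without wild-type B (8.67%). Leaving out a library can only keep or raise such counts. The share of reads was 0.122% in null and 0.117% in wild-type libraries against the denominators, which reverses the order of the group means. The groups overlapped, and only wild-type C lay below the null values. The median level per length was 16.7 with the shortest principal transcript. For the last number in the column names, deviations of same-numbered libraries from their group means correlated at 0.199, 0.408, 0.357 and -0.0525 (mean 0.228). The 8 other pairs had a mean of -0.108, with 3 of them over 0.1. Taking out group means ties these means together, so the lower one is not a separate comparison. Since 1 of the 4 same-numbered pairs was not over 0.1 and no label explains the number, it was not taken to pair libraries. With a replicate block on it 8 genes and 0 ribosomal protein genes were called, the median was -0.129, and ribosomal protein genes lower at an unadjusted p under 0.05 were 17, against 9. The first number in the column names is shared across genotypes only by null D and wild-type B and C. Among these libraries (no test) the median was -0.30, with 75 of 78 below 0 and a median of -0.03 over all genes, and wild-type B is 1 of the 3.

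Of 521 values of single named genes, 38 changed sign, over 17 of 28 genes, and none was called before or after. On the deposited values without centring the values were Rpl11 0.16, Rpl15 0.0926, Rpl35a 0.0683, Rpl4 0.0777, Rpl5 0.18, Rpl8 0.0336, Rplp0 0.0671, Rplp2 0.0199, Rps13 0.16, Rps15 0.0281, Rps27 0.12, Rps27l 0.10, Rps3a 0.14. With centring on the autosomal ribosomal protein genes (an alternative added after the data were seen) the values were Rpl11 0.058, Rpl5 0.0766, Rps13 0.0554, Rps27 0.0229, Rps27l 0.00163, Rps3a 0.041. Signs under that centring are relative to the middle autosomal ribosomal protein gene of each library. With a replicate block on the last number in the column names the values were Rpl11 0.0122. With array weights the values were Rpl5 0.0211, Rps13 0.00431. Keeping means of 3 or more (log2) the values were Rpl5 0.016. With quantile normalization the values were Rpl5 0.00761. With cyclic loess the values were Rpl5 0.0155. With 1 library left out in turn, the values ran for Rpl11 from -0.16 to 0.0752, Rpl23a from -0.0745 to 0.20, Rpl3 from -0.18 to 0.20, Rpl35a from -0.25 to 0.0309, Rpl36a from -0.0152 to 0.16, Rpl5 from -0.0564 to 0.054, Rpl9 from -0.12 to 0.23, Rps13 from -0.12 to 0.072, Rps27 from -0.34 to 0.0752. The causes were not tested.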
